A study of Mus musculus with 4 samples.

Results

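A set of 10 genes that mark or build the antibody-secreting plasma cell were compared between the left and the right pancreatic lymph node of the NOD mouse, an inbred strain that develops autoimmune diabetes without treatment. The genes were Tnfrsf17, Xbp1, Jchain, Prdm1, Irf4, Sdc1, Mzb1, Derl3, Pou2af1 and Eaf2, taken as every non-control probe of the array whose transcript accession maps to these names. They are 10 of 17178 named genes, measured by 12 of the 41174 probes of the array, 1 probe a gene except for Jchain and Eaf2 with 2 each, and all 12 probes were well above background in both nodes of all 4 mice. The tested samples were gastric lymph nodes, the left pancreatic node, and each was set against the pancreatico-duodenal lymph node, the right one, of the same female NOD mouse, aged 12 weeks, with no treatment given in the labels. Both nodes of a mouse were hybridised together on 1 array, the gastric sample in red (Cy5) and the pancreatico-duodenal sample in green (Cy3), for 4 mice. Ratios are log2 values with the gastric node on top, and values under 0 stand for less signal there. Whole nodes were extracted. Fewer plasma cells, less RNA per plasma cell and a change in other cells that use these genes therefore cannot be told apart.

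A B cell that becomes a plasma cell gives up its B cell programme under the transcription factors IRF4 and Blimp-1 (the product of Prdm1), and XBP1 then enlarges its secretory machinery so that immunoglobulin can be folded and exported. In lymph nodes plasma cells lie mainly in the medullary cords, close to macrophages, and the receptor BCMA (the product of Tnfrsf17) receives survival signals from the cytokines APRIL and BAFF. Irf4, Xbp1, Pou2af1 and Eaf2 are also used by other lymphocytes, and Xbp1, Derl3 and Sdc1 by secretory or epithelial cells outside the immune system.

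The promoter windows of the called genes and of the members with a motif of the unfolded protein response are shown first, since XBP1 acts through such motifs. RefSeq (GRCm38.p6) gave a window for 9 of the 10 genes, of which the 250 bases before the start were searched on both strands for the endoplasmic reticulum stress element (CCAAT and CCACG, 9 bases apart), the XBP1 and ATF6 motif TGACGTGG, the octamer ATGCAAAT and the IRF and Blimp-1 type motif GTGAAAG. Capitals mark a match to any of them. The windows are Derl3 at chr10:75893148-75893397 (plus strand), Pou2af1 at chr9:51213440-51213689 (plus), Tnfrsf17 at chr16:11313559-11313808 (plus) and Xbp1 at chr11:5520391-5520640 (plus).
Derl3: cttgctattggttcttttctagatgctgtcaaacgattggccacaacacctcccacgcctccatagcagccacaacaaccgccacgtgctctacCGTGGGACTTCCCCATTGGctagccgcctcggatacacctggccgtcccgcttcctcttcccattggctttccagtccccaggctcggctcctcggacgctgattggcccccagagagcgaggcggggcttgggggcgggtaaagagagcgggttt
Pou2af1: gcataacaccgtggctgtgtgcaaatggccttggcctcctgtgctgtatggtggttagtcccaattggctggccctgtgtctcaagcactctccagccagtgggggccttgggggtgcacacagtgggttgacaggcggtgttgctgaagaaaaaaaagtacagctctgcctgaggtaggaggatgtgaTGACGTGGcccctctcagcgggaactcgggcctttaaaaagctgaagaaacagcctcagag
Tnfrsf17: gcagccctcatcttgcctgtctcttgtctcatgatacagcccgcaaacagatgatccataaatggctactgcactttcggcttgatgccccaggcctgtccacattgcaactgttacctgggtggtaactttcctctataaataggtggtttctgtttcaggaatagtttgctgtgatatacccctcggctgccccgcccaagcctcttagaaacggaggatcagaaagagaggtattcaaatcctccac
Xbp1: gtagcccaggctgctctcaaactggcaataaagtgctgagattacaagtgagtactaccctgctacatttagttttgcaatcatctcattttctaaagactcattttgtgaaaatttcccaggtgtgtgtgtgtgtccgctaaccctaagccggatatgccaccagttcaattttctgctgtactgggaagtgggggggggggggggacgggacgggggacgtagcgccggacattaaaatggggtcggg
The Derl3 window held the whole stress element on the minus strand, at bases -156 to -138 from the start, a match found in 0.113% of 32851 windows of the same length. The Pou2af1 window held TGACGTGG at bases -61 to -54, a match found in 0.563% of windows. Neither the Tnfrsf17 nor the Xbp1 window held any of the searched letters. Among the other members the only match was GTGAAAG in 1 of 3 windows of Eaf2, a motif found in 3.57% of windows, and the octamer, found in 1.6% of windows, was in none.

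All 4 arrays shared 1 slide and 1 scan, so no batch within them could be examined. The dyes were not exchanged, so an effect of the dye on a probe and an effect of the node cannot be told apart. Between 67.1% and 71.4% of probes were well above background in the gastric node channel and between 59.6% and 62.6% in the pancreatico-duodenal channel, and no spot was saturated. The red channel was brighter as a whole, with a median spot signal of 115 to 155 against 87.3 to 95.9 in green. The loess step within each array corrects for this along the intensity scale. After it, the 99 kept probes above a log2 intensity of 16 still had a median ratio of 0.24, with 50 called higher and 0 lower. Below that intensity the medians by bin lay between 0.0065 and 0.033. The brightest plasma cell probe, of Jchain, lay at 14.37. Precision is limited by the number of arrays, 4.

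Tnfrsf17 and Xbp1 were lower in the gastric node and the other 8 plasma cell genes did not pass the test. With limma and Benjamini-Hochberg adjustment over all 27602 probes kept by the filter on dim probes, 4.91% of probes were called lower in the gastric node and 2.99% higher at an adjusted p under 0.05, 7.9% in either direction. Taken by the brightest probe of each of 13400 named genes, 6.37% were called lower and 2.42% higher, 8.79% in either direction. Of the 10 plasma cell genes 2 were called lower and 0 higher (the other 8 all had an unadjusted limma p above 0.05), 6 had a mean below 0 and 4 a mean above 0. Their median log2 ratio was -0.076, beside 0.023 for all kept probes. With arrays only centred on their median in place of loess, the median of the 10 was 0.40, beside 0.29 for all kept probes. Mouse by mouse the median over the 10 genes was 0.07, -0.10, -0.019 and -0.26 in mice 1 to 4, so it lay above 0 in mouse 1 and below 0 in the other mice.

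**Figure D1:**
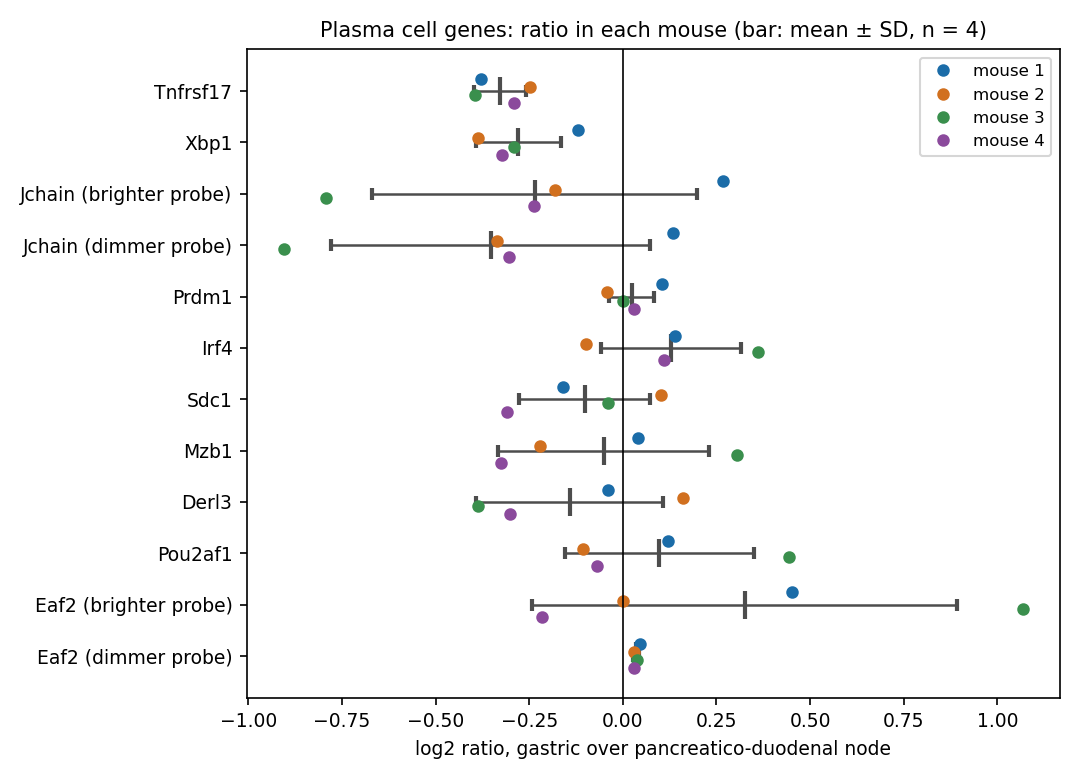
Log2 ratio of gastric over pancreatico-duodenal node for the 12 probes of the 10 plasma cell genes, 1 point a mouse, with the mean and SD over 4 mice as a bar. The Tnfrsf17 and Xbp1 points all lie below 0, the Jchain points range from -0.90 to 0.27 over both probes, and the points of the dimmer Eaf2 probe lie between 0.029 and 0.046.

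Tnfrsf17 encodes BCMA, the receptor that keeps plasma cells alive. Its spots read 201, 176, 106 and 191 in the gastric node and 141, 136, 105 and 134 in the pancreatico-duodenal node of mice 1 to 4, before correction for background and for the brighter red channel. After both corrections the log2 ratios were -0.38, -0.25, -0.39 and -0.29. All 4 mice were thus below 0, and close to each other. Agreement of sign alone was common. Of the 27602 kept probes, 4968 were below 0 in all 4 mice and 6287 were above 0 in all 4. Of the 10 plasma cell genes, 2 were below 0 in all 4 mice, Tnfrsf17 and Xbp1, and 0 were above 0 in all 4. The gastric node averaged a 1.25-fold lower level (log2 ratio -0.33 ± 0.07, SD, n = 4, 95% interval -0.45 to -0.21, limma adjusted p = 0.0270). This was a dim probe, brighter than 34.3% of the kept probes. Of 17 alternatives, 13 called it lower. Those that changed the ratio kept it below 0, at -0.37 with no background correction, -0.43 with a normexp offset of 16, -0.62 with the scanner software's processed signals, which differ in background and dye correction together, and -0.18 with median centring, where the median of all kept probes stood at 0.29.

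Xbp1 encodes the transcription factor that expands the secretory pathway. Its log2 ratios were -0.12, -0.39, -0.29 and -0.32 in mice 1 to 4, all below 0 and nearest to 0 in mouse 1. The gastric node level was 1.21-fold lower (-0.28 ± 0.11, SD, n = 4, 95% interval -0.42 to -0.14, limma adjusted p = 0.0459). The direction depended on the correction for intensity. With each array only centred on its median, the ratio was 0.26 and called higher, but there the median of all kept probes stood at 0.29, and relative to it Xbp1 was at -0.030. Both Tnfrsf17 and Xbp1 lost the call without mouse 2, without mouse 3 or without mouse 4, where at most 5 of all kept probes passed.

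Jchain encodes the joining chain that links the units of polymeric IgA and IgM, and it had the brightest plasma cell probe. That probe was at 0.27, -0.18, -0.79 and -0.24 in mice 1 to 4, and the second probe of the same transcript at 0.13, -0.34, -0.90 and -0.31. The probes thus ordered the mice nearly alike, with mouse 1 above 0 and mouse 3 lowest, and differed by 0.12 ± 0.037 (SD, n = 4). The means were -0.24 ± 0.43 and -0.35 ± 0.43 (SD, n = 4), and neither passed (limma adjusted p = 0.364 and 0.194, 95% intervals -0.63 to 0.16 and -0.74 to 0.035). The spread over mice of the brighter probe was larger than that of 96.2% of kept probes. Set on a common scale over arrays, its gastric node levels were 14.61, 14.40, 13.41 and 14.61 on the log2 scale in mice 1 to 4, against 14.34, 14.58, 14.20 and 14.84 in the pancreatico-duodenal node. The gastric node of mouse 3 was the lowest of all 8 samples. Without mouse 3 the mean ratio was -0.050, and without mouse 1 it was -0.40 (limma adjusted p = 0.0870).

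**Figure D2:**
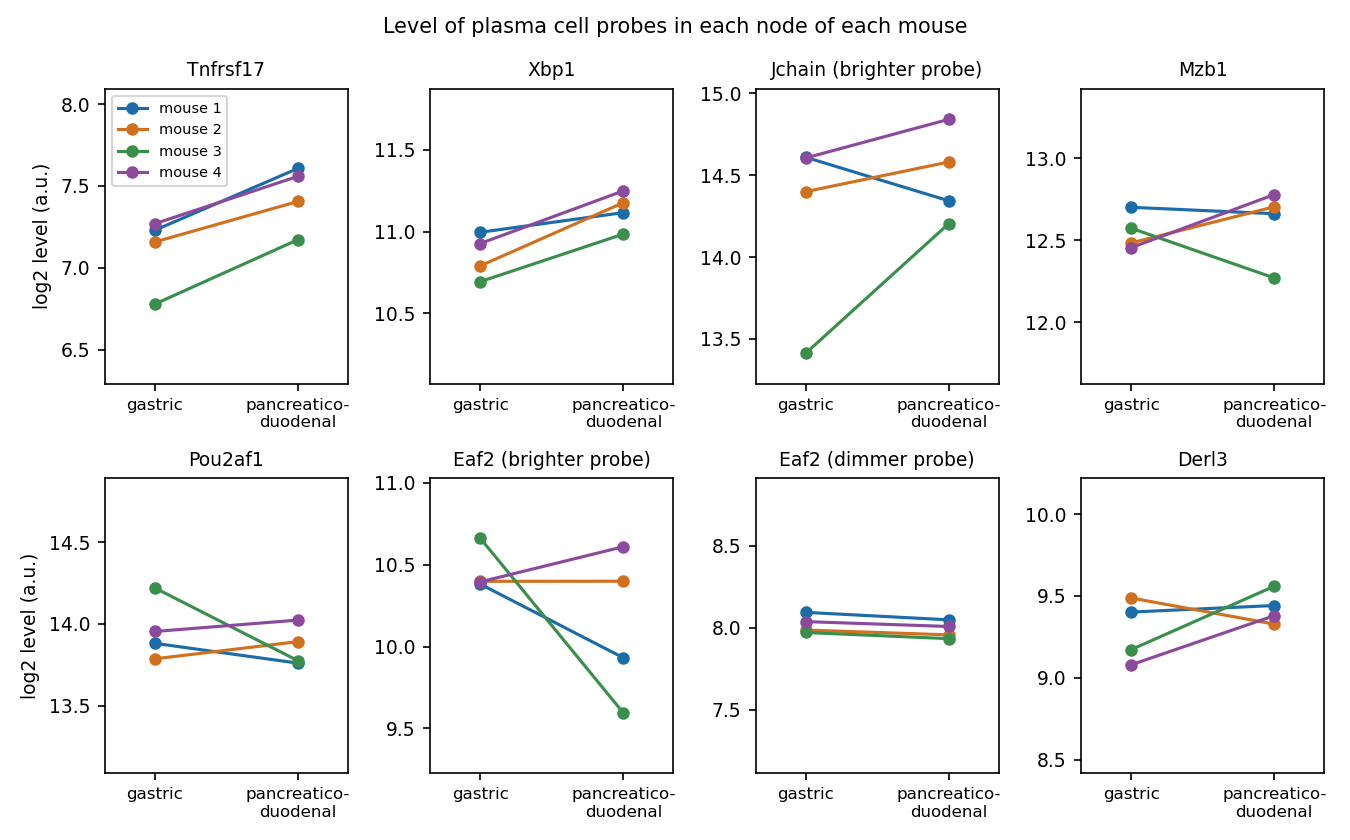
Log2 level (arbitrary units) of 8 plasma cell probes in the gastric node and the pancreatico-duodenal node, a line for each mouse, with the same height of axis in every panel. The Tnfrsf17 and Xbp1 lines run to a lower gastric level in each mouse, the Jchain line of mouse 3 ends at 13.41 in its gastric node, and the brighter Eaf2 probe spans 9.59 to 10.61 in the pancreatico-duodenal node while the dimmer probe spans 7.93 to 8.05.

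Among the transcription factors that start the plasma cell programme, neither Prdm1 nor Irf4 passed. Prdm1, whose product Blimp-1 represses the B cell programme, read 0.10, -0.041, 0.0015 and 0.031 in mice 1 to 4. Its mean was 0.024 ± 0.061 (SD, n = 4, limma adjusted p = 0.755), and the 95% interval of -0.09 to 0.14 was among the narrowest of the members. Irf4, which induces Prdm1 at high levels, read 0.14, -0.10, 0.36 and 0.11, with 3 of 4 mice above 0. Its mean was 0.13 ± 0.19 (SD, n = 4, limma adjusted p = 0.318, 95% interval -0.07 to 0.32).

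Pou2af1 and Eaf2 are B lineage genes that plasma cells share with other B cells. Pou2af1, the coactivator of octamer-binding factors, read 0.12, -0.11, 0.44 and -0.07 in mice 1 to 4 (0.10 ± 0.25, SD, n = 4, limma adjusted p = 0.534). Eaf2, a transcription elongation factor gene of germinal centre and plasma cells, gave different readings on its probes. The brighter probe read 0.45, -0.00074, 1.07 and -0.21, a mean of 0.33 ± 0.57 that did not pass (SD, n = 4, limma adjusted p = 0.333), with a larger spread over mice than 98.3% of kept probes. The dimmer probe, of the same transcript accession, read 0.046, 0.029, 0.038 and 0.030, a mean of 0.036 ± 0.0077 (SD, n = 4, limma adjusted p = 0.586). Only 0.0435% of kept probes had a smaller spread. The difference between the probes therefore ranged from -0.24 in mouse 4 to 1.03 in mouse 3. The spots of the dimmer probe read 389, 344, 260 and 353 in the gastric node and 184, 195, 167 and 175 in the pancreatico-duodenal node.

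Mzb1, Derl3 and Sdc1 did not pass either. Mzb1 encodes a chaperone cofactor of the endoplasmic reticulum that helps assemble IgM, and its probe was printed as 10 spots on each array. The 10 spots averaged 0.039, -0.22, 0.30 and -0.32 in mice 1 to 4, with SDs over spots of 0.028, 0.027, 0.040 and 0.033. The spread over arrays was larger than that over repeated spots of 1 array, which does not hold the error of amplification, labelling and hybridisation. The mean over mice was -0.050 ± 0.28 (SD, n = 4, limma adjusted p = 0.777). Derl3, which encodes derlin-3 of the pathway that removes misfolded proteins from the endoplasmic reticulum, read -0.04, 0.16, -0.39 and -0.30 (-0.14 ± 0.25, SD, n = 4, limma adjusted p = 0.371). Sdc1, the gene of the plasma cell surface proteoglycan syndecan-1 (CD138), read -0.16, 0.10, -0.04 and -0.31 (-0.10 ± 0.17, SD, n = 4, limma adjusted p = 0.395). Both genes had 3 of 4 mice below 0.

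**Figure D3:**
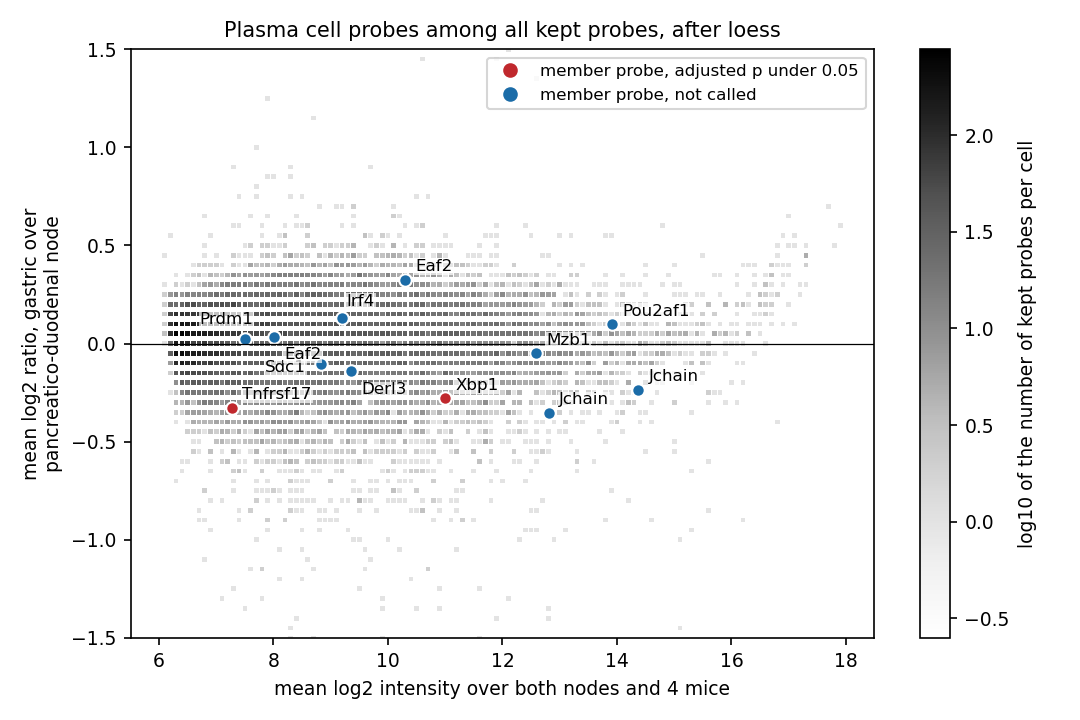
Mean log2 ratio over 4 mice (vertical) against mean log2 intensity over both nodes (horizontal) for all kept probes in grey, darker where more probes fall in a cell, with the 12 plasma cell probes on top and called ones in red. Tnfrsf17 lies at an intensity of 7.28 and Xbp1 at 10.99, and 10 kept probes beyond 1.5 in either direction are outside the frame.

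The members did not all move together from mouse to mouse. In mouse 3 Jchain, Derl3, Tnfrsf17 and Xbp1 were at -0.79, -0.39, -0.39 and -0.29, while the brighter Eaf2 probe, Pou2af1, Irf4 and Mzb1 had their highest values, 1.07, 0.44, 0.36 and 0.30. In mouse 4 the values of Mzb1, Derl3 and Sdc1 were -0.32, -0.30 and -0.31. Marker lists of other cells moved in the same arrays. All 11 of 11 exocrine pancreas markers were lower on the gastric side of mouse 3, with a list median of -4.72, while mice 1, 2 and 4 gave medians of -0.18, 0.21 and 0.88. The brightest of them, Cela3b and Cpa1, were at -5.62 and -3.85 in mouse 3. Their summed log2 level in mouse 3 was 15.74 in the gastric and 20.61 in the pancreatico-duodenal node, against 13.11 to 15.25 in the gastric and 12.29 to 15.73 in the pancreatico-duodenal nodes of the other mice. The 7 proliferation markers, none of them called, had a median of 0.64 in that mouse, and of -0.21, -0.13 and 0.13 in mice 1, 2 and 4. The brightest of them, Birc5 and Mki67, were at 0.20 ± 0.51 and 0.26 ± 0.54 (SD, n = 4). Of 3 measured epithelial markers (of 5), none was called, and Krt18, the brightest, was at -2.65 in mouse 3 and -0.31, -0.18 and -0.18 in mice 1, 2 and 4, with Epcam next at -0.27 ± 0.13 (SD, n = 4). The 6 measured adipocyte markers (of 8) had medians of 2.05, -2.03, 0.52 and -1.69 in mice 1 to 4, with none called. Fabp4 and Cfd, the brightest, were at -0.57 ± 1.59 and 0.05 ± 2.65 (SD, n = 4). The part of exocrine, epithelial or fat tissue or of dividing cells in the plasma cell values was not tested. Without mouse 3, Xbp1 was at -0.28 and Tnfrsf17 at -0.31, while Derl3 was at -0.060, Irf4 at 0.050, Pou2af1 at -0.018, the brighter Eaf2 probe at 0.08 and Mzb1 at -0.17. Leaving out other mice moved some of these the other way. Derl3 was at -0.24 without mouse 2, the brighter Eaf2 probe at 0.51 without mouse 4, and Mzb1 at 0.0063 without mouse 2 and 0.041 without mouse 4.

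Markers of other node cells were read on the same arrays. Of 8 measured macrophage markers (of 9) 6 were lower in the gastric node and 0 higher, with a list median of -0.85. Of all named genes 6.37% were lower and 2.42% higher. The summed log2 level of the macrophage markers was 13.87 to 14.59 in gastric and 14.88 to 15.18 in pancreatico-duodenal nodes. Adgre1 (an adhesion receptor of tissue macrophages), Cd163 (a haemoglobin scavenger receptor), the complement genes C1qb, C1qa and C1qc, and the growth factor receptor gene Csf1r were at -1.36, -1.26, -1.04, -0.93, -0.78 and -0.43. With the mean of a gene's probes in place of the brightest, Adgre1 was at -0.95 and still called lower. With median centring Csf1r was at 0.19, which is -0.10 relative to the median of all kept probes there. Of 7 measured dendritic cell markers (of 9) 3 were lower, Fscn1 at -0.65, the growth factor receptor gene Flt3 at -0.64 and Itgax (CD11c) at -0.38. With median centring Itgax was at 0.15, or -0.15 relative to all kept probes. The summed log2 level of the dendritic cell markers was 11.60 to 12.05 in gastric and 12.31 to 12.52 in pancreatico-duodenal nodes. Of 9 T cell markers 2 were higher, Cd28 and Cd3g. Of 9 B cell markers none passed in limma, with Cr2 the nearest at 0.45 ± 0.41 (SD, n = 4, adjusted p = 0.12). The brightest, Cd79b and Blnk, were at 0.07 ± 0.20 and 0.08 ± 0.16 (SD, n = 4). Over the 9 markers, their summed log2 level was 16.55 to 16.84 in gastric and 16.44 to 16.67 in pancreatico-duodenal nodes. Their part in the plasma cell values was not tested.

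The programme that B cells leave behind when they become plasma cells had 1 gene lower and 1 higher among 27 measured of 29. The lower share was 3.7%, near the 6.37% of all named genes, of which 2.42% were called higher. The list median was 0.07. Spi1, the gene of the transcription factor PU.1 of B cells and myeloid cells, was at -0.45 ± 0.08, and Ets1, whose product holds back Blimp-1 in B cells, at 0.27 ± 0.10 (SD, n = 4, limma adjusted p = 0.0211 and 0.0442). Both kept their sign with median centring. The Spi1 probe was dim, at a log2 intensity of 7.28 like that of Tnfrsf17. Its ratio was -0.59 with a normexp offset of 16 and -0.80 with the scanner software's processed signals. With the mean of a gene's probes in place of the brightest, Ets1 was at 0.18 and not called (limma adjusted p = 0.0559). Of 17 alternatives, 9 called Ets1 higher and 14 called Spi1 lower. Pax5, the B cell identity factor, was at 0.036 ± 0.071 (SD, n = 4, limma adjusted p = 0.643).

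Secretory pathway and unfolded protein response genes, the machinery that XBP1 serves, had 7 of 64 measured members lower (10.9%, beside the 6.37% of all named genes), 0 higher and 57 not called, out of a list of 66. The list median was -0.064. Edem2, which helps extract misfolded glycoproteins, was at -0.51 ± 0.09, the stress-response transcription factor gene Atf4 at -0.34 ± 0.033 and the lectin chaperone gene Calr at -0.31 ± 0.08 (SD, n = 4, limma adjusted p = 0.0200, 0.0231 and 0.0308). Rpn1 and Ddost, subunits of the complex that adds sugars to new proteins, were at -0.29 ± 0.053 and -0.28 ± 0.059 (SD, n = 4). With the mean of a gene's probes in place of the brightest, Rpn1 was at -0.18 and not called (limma adjusted p = 0.0670). The retrieval receptor gene Kdelr1 (-0.27 ± 0.12, SD, n = 4) and Fkbp2, a prolyl isomerase gene, completed the called members. Both were near the threshold (limma adjusted p = 0.0493 and 0.0437). Of 17 alternatives, 5 called Kdelr1 lower and 9 called Fkbp2 lower. The list's count fell to 0 without mouse 2, without mouse 3 and without mouse 4, to 1 with the scanner software's processed signals, and to 2 with the channels unpaired. It was 5 with a normexp offset of 16 and 9 with arrays scaled to a common spread. With median centring 59 of the 64 were called higher and the list median was 0.52, above the 0.29 of all kept probes, so the direction of this list rests on the correction for intensity. Edem2 was at -0.038 there. Relative to the median of all kept probes in that setting, Edem2, Kdelr1 and Atf4 were at -0.33, -0.15 and -0.14, and the other 4 lay between 0.0031 and 0.11. The stress element was found in the windows of 9 of 53 members with a promoter, Calr among them, and in no other called member.

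**Figure D4:**
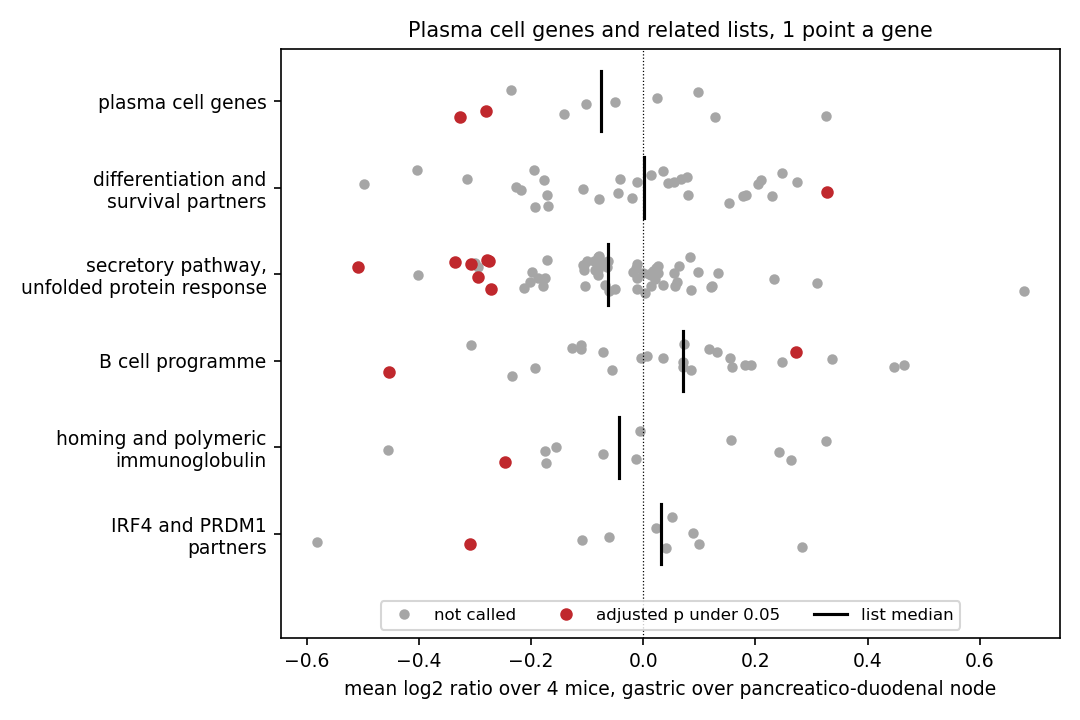
Mean log2 ratio over 4 mice of each measured gene (points, red where the adjusted p was under 0.05) in the plasma cell genes and 5 related lists, with the list median as a black line. Called genes of the plasma cell and secretory lists all lie below 0 after loess (with median centring, where all kept probes have a median of 0.29, only Tnfrsf17 and Edem2 of them do), and the list medians lie between -0.076 and 0.07.

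Partners of plasma cell differentiation and survival had 1 of 32 measured genes higher and 0 lower, out of 35, with a median of 0.0012. Of all named genes 2.42% were higher and 6.37% lower. The called gene was Cd28, a co-stimulatory receptor gene of T cells that plasma cells can carry, at 0.33 ± 0.15 (SD, n = 4, limma adjusted p = 0.0449), and Cd3g, a T cell marker, was higher by a like 0.32 ± 0.14 (limma adjusted p = 0.0439). Tnfrsf13b, which encodes TACI, the relative of BCMA, was at -0.011 ± 0.12, and Tnfsf13b, the gene of the ligand BAFF, at 0.08 ± 0.31 (SD, n = 4). Plasmablast homing genes had 1 of 12 measured lower (8.33%, beside 6.37% of all named genes) and 0 higher. The called gene was the vessel addressin gene Madcam1 at -0.25 ± 0.09 (SD, n = 4, limma adjusted p = 0.0484). It was near the threshold, and 7 of 17 alternatives called it lower. With median centring it was at 0.28, or -0.018 relative to all kept probes. The chemokine receptor genes of mucosal plasmablasts, Ccr10 and Ccr9, were at -0.17 ± 0.17 and -0.18 ± 0.22 (SD, n = 4) and did not pass. Of 10 measured genes that act with IRF4 or Blimp-1 in other cells 1 was lower (10%, beside 6.37% of all named genes) and 0 higher. This was Batf3, a factor of cross-presenting dendritic cells, at -0.31 ± 0.10 (SD, n = 4, limma adjusted p = 0.0360). It was at 0.26 with median centring, or -0.035 relative to all kept probes.

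Likeness was measured as the root mean square difference of log2 ratios over the 4 mice, among 13185 named genes. Here a gene counted by whichever of its kept probes lay nearest, which favours genes with several probes. The nearest to Jchain were Deptor, which encodes an inhibitor of mTOR signalling, at 0.053, Xlr at 0.059, the endothelial gene Emcn at 0.062, Nbea at 0.084 and Cdk14 at 0.085, and 8 genes in all lay within 0.1. Deptor read 0.27, -0.21, -0.69 and -0.21 in mice 1 to 4. Among the nearest to Tnfrsf17 were Trafd1, Plxnd1, Med25 and Thra, at 0.030 to 0.038, but 244 genes lay within 0.1 of it, so many genes had a like profile.

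The choice of normalization set the sign of several members. With the scanner software's own dye correction 1 gene, Tnfrsf17, was called lower and Xbp1 was at -0.29 with an adjusted p = 0.0726 in limma. With median centring Tnfrsf17 alone was called lower and the other 9 were called higher, in a setting where 16108 probes were called higher and 2858 lower. Relative to the median of all kept probes in that setting, Tnfrsf17 was at -0.47, Pou2af1 at 0.49, Eaf2 at 0.54, Irf4 at 0.28, Mzb1 at 0.27 and Jchain at 0.18, and Xbp1, Prdm1, Sdc1 and Derl3 lay between -0.065 and 0.019.

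**Figure D5:**
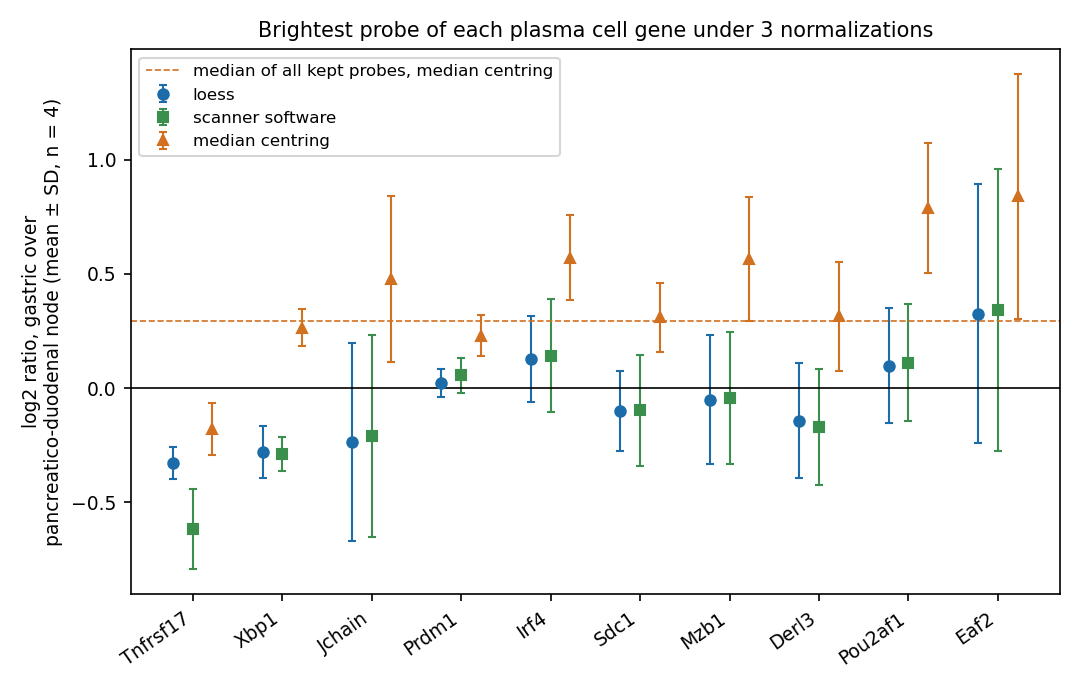
Mean and SD over 4 mice of the log2 ratio of gastric over pancreatico-duodenal node for the brightest probe of each plasma cell gene, after loess, with the scanner software's processed signals and with median centring, with the median of all kept probes under median centring dashed at 0.29. Tnfrsf17 lies below 0 in all 3, and the other 9 genes lie above 0 with median centring.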

How the data were processed

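Per the labels' protocols, RNA of both nodes was amplified and labelled with Cy5 (gastric) and Cy3 (pancreatico-duodenal). The deposited scanner files hold mean and background intensity per spot and a log10 ratio (not used here), written by Feature Extraction (version 10.2.1.3), per the file headers. The series' value table, as deposited, holds log2 values that equalled the mean over spots of log2 processed red over green (largest difference 5.11e-05), with medians of -0.15, -0.06, -0.03 and -0.03.

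Intensities were corrected with normexp (offset 50) and loess within arrays in limma 3.58.1 (R 4.3.3), and spots not flagged as outliers were averaged per probe. A probe was kept if 3 or more of the 4 arrays had it well above background in one and the same channel. The mean ratio was tested against 0 with lmFit and eBayes. A gene counts by its brightest kept probe, except for likeness, where it counts by its nearest kept probe. Levels per node were taken after quantile adjustment of mean intensity between arrays. Names came from accessions matched to RefSeq (24844 of 41174 probes). The steps were tested on simulated data, with planted changes larger than those of Tnfrsf17 and Xbp1 and no dye effect on single probes. That test does not bear on calls of their size. All plasma cell probes, up to 6 called genes of each list with 1 sign in every mouse (or its 2 brightest), and the 5 most alike genes were named (1 is not reported here), besides Fkbp2, Pax5, Tnfrsf13b, Tnfsf13b, Ccr9, Ccr10 and Cr2, chosen after their values were seen. Members and lists were chosen with earlier results of these data known. Replicates are 4 separate mice, per the labels.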

Additional observations from a re-analysis of the deposited data

How the results depend on the processing

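Of all kept probes 1356 were called lower and 824 higher. These counts were 738 and 494 both with the scanner software's processed signals and with the series table, 828 and 425 without the replicate block (channels unpaired), 2776 and 2503 at a threshold of 0.1, and 2858 and 16108 when median centring replaced loess. The higher count was 1334 with arrays scaled to a common spread. Leaving out 1 mouse gave 0 to 1924 lower and 0 to 1128 higher, with 0 and 0 without mouse 2 (5580 probes at an unadjusted p under 0.05 in limma). Of the plasma cell genes 1 was called lower with the scanner software's signals, the series table and median centring, 0 without the replicate block, and 0 to 2 with a mouse left out. With median centring 9 were called higher and their median was 0.40, beside 0.29 for all kept probes; the sign turned for Xbp1 (0.26), Jchain (0.48), Sdc1 (0.31), Mzb1 (0.57) and Derl3 (0.31), of which Xbp1 lay below that median (-0.030 relative to it). Leaving out 1 mouse gave medians of -0.08 to -0.0059. Median centring over kept probes only, chosen after seeing the data, gave 9056 lower and 8450 higher probes, 1 lower and 3 higher plasma cell genes and a median of 0.12. The cause of these changes was not tested. Tnfrsf17, whose probe was dim, ranged from -0.62 with the scanner software's signals to -0.18 with median centring.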
